A study of Arabidopsis thaliana with 12 samples.

Results

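The response of wild-type Arabidopsis thaliana seeds to stratification was described across the whole transcriptome. Stratification is a moist, cold treatment given to seeds before sowing. The comparison set 3 libraries from stratified seeds against 3 libraries from dry seeds, all of ecotype Col-0. These 6 libraries are all the wild-type ones of a series of 12, and every one of the 32833 loci in the expression table entered, of which 15145 passed the filter on low values (at least 1 RPKM in at least 3 of the 12 libraries). RPKM is a read number scaled to the exon length of the gene and to the mapped reads of the library.

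Dry wild-type seeds were sampled at day 0 and carry the label of an untreated control. Stratified wild-type seeds had lain in sterile water at 4 °C and were sampled at day 2. The remaining 6 libraries came from dry and stratified seeds of a mutant line, named atalkbh1a1b in the labels, and were used here to estimate the spread between replicates and as a point of reference for stratified library 3. Cold, uptake of water and time differed together between the wild-type groups, so their parts cannot be told apart. The labels do not say whether the replicates came from separate plants or seed lots, so p-values measure only the spread between these samples. Whole seeds were extracted, and fewer cells of a type and less RNA per cell cannot be told apart in such material.

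A mature dry seed holds messenger RNA made during seed maturation, when storage proteins, oil body proteins and late embryogenesis abundant (LEA) proteins accumulate and the embryo becomes tolerant of drying. When the seed takes up water, metabolism resumes, stored messages are broken down and messages for ribosomes, energy metabolism and growth are made. In dormant or light-requiring seeds, the balance between abscisic acid, which holds germination back, and gibberellin, which promotes it, is set partly by temperature, and cold in the moist state is a classical means of releasing dormancy.

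Of the 3 stratified libraries, library 3 stood apart. The wild-type libraries held 18.6 to 22.99 M reads. Pearson's r of log2(RPKM + 1) over the tested genes, given as a description, was 0.981 between stratified libraries 1 and 2, 0.916 and 0.890 between library 3 and these, and 0.985, 0.953 and 0.980 between library 3 and the 3 stratified libraries of the mutant-labelled line. Nuclear ribosomal RNA took 15.4% of the reads of library 3, against 5.91% and 3.05% in stratified libraries 1 and 2 and 3.25% to 3.74% in the dry ones. In the stratified libraries of the mutant-labelled line it took 15.1%, 3.78% and 29.3%. Loci at 1 RPKM or more numbered 12206 to 12243 in the dry libraries, 14774 and 15285 in stratified libraries 1 and 2, and 13967 in library 3. Library 3 is kept here as labelled, and whether its label or its seed lot differs from that of libraries 1 and 2 cannot be told from the labels, which bears on every mean of the stratified group. What part the ribosomal RNA share or any other property of library 3 had in its values was not tested, and its values are given beside those of the other 2 libraries throughout.

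With log2(RPKM + 1) as the scale and limma's moderated test with Benjamini-Hochberg adjustment (threshold 0.05, two-sided; this scale understates the change of low genes), 7535 genes were higher in stratified seeds, which is 49.8% of the genes tested, and 2862 were lower, which is 18.9%. Without overlap between the libraries, 55.0% stood higher and 24.0% lower. The median log2 change over all tested genes was 0.64, and in stratified libraries 1, 2 and 3 taken singly it was 0.63, 0.86 and 0.39. When each library was centred on its median, the split was 5870 higher against 5561 lower, or 38.8% and 36.7% of the genes tested. The other scalings tried, TMM-style factors and quantile normalization, gave 6062 against 5725 (40.0% and 37.8% of the genes tested) and 5560 against 5750 (36.7% and 38.0%), and median centring, TMM-style scaling and quantile normalization moved the median of all genes by -0.57, -0.58 and -0.65. Of the genes called higher, 5258 were also higher under each of these 3 scalings, and of the genes called lower 2853 were also lower under each. Of the called genes 446 had another sign under at least 1 of these scalings, and 0 of those with a change of at least 2-fold had.

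Library 3 had the smaller distance from the dry seeds for most changed genes. Among the 4441 genes that rose at least 2-fold without overlap and reached a mean of 5 RPKM, library 3 was the stratified library nearest to the dry level for 3831 and the farthest for 291, and the median log2 difference was 2.15, 2.43 and 1.54 in libraries 1, 2 and 3. Among the 1695 genes that fell under the same conditions, it was nearest for 1085 and farthest for 347, with medians of -1.98, -1.85 and -1.60. Without library 3, 53.0% of the tested genes were called higher and 19.2% lower, and 7422 of the 7535 genes were still called higher and 2696 of the 2862 lower. With library 3 as the only stratified library, 5078 and 1953 were.

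The dry seed was dominated by transcripts of seed maturation. The 9 storage protein genes took 23.1%, 22.0% and 22.8% of the reads without ribosomal RNA in the dry libraries, and 4.34%, 3.13% and 14.6% in stratified libraries 1, 2 and 3. LEA proteins and dehydrins, which protect membranes and proteins during drying, took 12.2% to 12.9% in dry seeds and 1.14%, 0.960% and 2.76% after stratification. Oil body proteins, which coat the lipid droplets of the embryo, took 4.504% to 4.58% and then 0.357%, 0.288% and 1.46%. Library 3 thus kept the largest share of each of these 3 groups among the stratified libraries, in all cases below the dry range. The binomial 95% intervals (Wilson) of these shares reach at most 0.0205 percentage points to either side and cover counting error only.

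**Figure D1:**
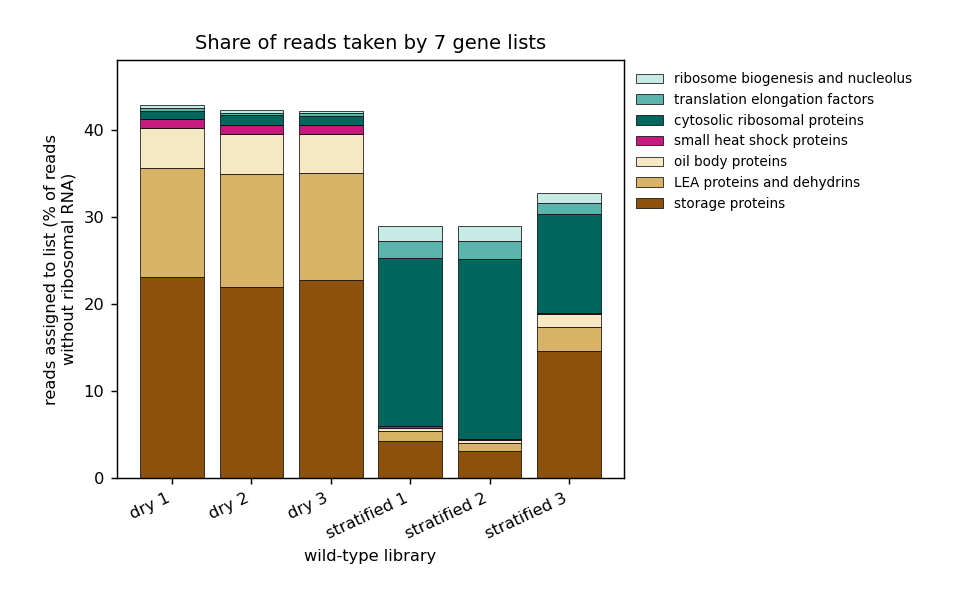
Stacked bars of the share of reads (%, reads without ribosomal RNA) taken by 7 gene lists in each of the 6 wild-type libraries. Storage protein reads fell from 22.0% or more in each dry library to 4.34%, 3.13% and 14.6% in stratified libraries 1 to 3, while cytosolic ribosomal protein reads stood at 1.01% to 1.07% in dry seeds and at 19.3%, 20.7% and 11.3% after stratification.

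All 9 storage protein genes were tested, and 7 fell and 0 rose. The median log2 change was -1.93, beside 0.64 over all tested genes, and it was -2.31, -2.87 and -0.62 in libraries 1, 2 and 3. Without library 3, 8 of 9 fell, with library 3 alone 2 of 9, and under quantile normalization 3 of 9. PAP85, a vicilin-like storage globulin (chromosome 3, 8011724 to 8013941, minus strand, TAIR10.1), stood at 15492, 14163 and 14479.5 RPKM in the dry libraries and at 299, 254 and 1580.5 RPKM in the stratified ones. It fell by 4.89 ± 0.67 on the log2 scale (SE, limma, adjusted p = 6.1e-06). SESA5, a 2S albumin, stood at 31041 to 32087 RPKM in dry seeds and at 1668, 1254 and 7555 RPKM after stratification (log2 change -3.66 ± 0.72, adjusted p = 0.00023). CRA1, the precursor of a 12S cruciferin, had 24522 to 26886 RPKM and then 3471, 2597 and 12088 RPKM (log2 change -2.44 ± 0.69, adjusted p = 0.0048), and its change was -0.44 under quantile normalization, where it did not pass (adjusted p = 0.59). For each of the 3 genes the groups did not overlap, and library 3 lay several-fold above libraries 1 and 2. Storage albumins and cruciferins are families of closely similar genes, so reads may have been split among copies.

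Of 39 genes listed for oil bodies 24 were tested, and 19 fell and 2 rose (median -2.85). Of 68 LEA and dehydrin genes 45 were tested, and 34 fell and 4 rose (median -2.42). OBAP1A, an oil body-associated protein, fell from 4154, 4334 and 4259 RPKM to 61.1, 54.5 and 239.7 RPKM (log2 change -5.50 ± 0.54, adjusted p = 1.4e-07). OBAP2A, of the same family, went from 2551 to 2637 RPKM in dry seeds to 54.4, 46.8 and 194 RPKM (log2 change -5.01 ± 0.55, adjusted p = 5.0e-07). ATECP31, a seed maturation protein of the LEA type, stood at 2555 to 2662 RPKM and then at 37.7, 33.0 and 132 RPKM (log2 change -5.54 ± 0.56, adjusted p = 2.1e-07). The stratified values of library 3 were again the highest of the 3 in each of these genes. The members that went the other way were HSD2, a steroid dehydrogenase of oil bodies, AT1G13930, annotated as oleosin-B3-like, and the LEA genes HIRD11, COR47, LEA3 and AT1G15415. AT1G15415, at 1.35 to 2.23 RPKM and then 2.97, 2.60 and 8.77 RPKM, had a log2 change of 0.94 ± 0.34 (adjusted p = 0.022) but 0.48 without library 3 (adjusted p = 0.12), and AT1G13930 did not pass under the 3 scalings. HIRD11, a dehydrin, stood at 3.51, 4.74 and 4.58 RPKM in dry seeds and at 54.4, 145 and 9.77 RPKM after stratification (log2 change 3.08 ± 0.61, adjusted p = 0.00027). COR47, a dehydrin known for its induction by cold, stood at 0.0694 to 0.176 RPKM and then at 8.94, 15.8 and 1.17 RPKM (log2 change 2.67 ± 0.49, adjusted p = 0.00012).

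Upstream sequences of many oil body and LEA genes held known maturation motifs, and 3 are shown with the motifs in capitals. They were taken from RefSeq, build TAIR10.1, as the 250 bases before the annotated gene start, 5′ to 3′ on the gene's strand, and are the members with the largest change whose window holds the motifs of the list. Capitals mark the ABRE core (ACGTG, read on both strands), which abscisic acid-responsive bZIP factors bind, and the RY element (CATGCA), which B3 factors of seed maturation bind. A G-box (CACGTG) holds the ABRE core on both strands. OBAP1A lies at chr1:1629196-1629445, plus strand, OBAP2A at chr5:18536317-18536566, minus strand, and GEA6, which encodes the LEA protein Em6, at chr2:16780369-16780618, minus strand.
OBAP1A: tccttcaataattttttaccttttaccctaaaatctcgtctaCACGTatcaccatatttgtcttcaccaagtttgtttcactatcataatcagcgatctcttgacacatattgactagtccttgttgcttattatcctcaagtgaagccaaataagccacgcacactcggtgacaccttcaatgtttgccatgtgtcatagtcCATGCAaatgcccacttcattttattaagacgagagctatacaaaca
OBAP2A: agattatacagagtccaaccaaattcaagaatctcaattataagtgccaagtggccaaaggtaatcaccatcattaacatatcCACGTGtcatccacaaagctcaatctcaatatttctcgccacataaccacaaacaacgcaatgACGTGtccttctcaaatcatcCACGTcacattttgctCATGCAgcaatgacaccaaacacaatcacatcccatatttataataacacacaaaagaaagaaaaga
GEA6: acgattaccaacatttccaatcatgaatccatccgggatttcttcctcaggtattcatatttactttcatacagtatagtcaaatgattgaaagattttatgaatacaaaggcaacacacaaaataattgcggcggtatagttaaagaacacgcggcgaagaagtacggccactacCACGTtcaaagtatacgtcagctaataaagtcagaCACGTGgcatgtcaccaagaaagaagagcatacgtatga
GEA6 itself went from 17886, 19889 and 17555 RPKM to 671, 471 and 2103 RPKM (log2 change -4.40 ± 0.65, adjusted p = 1.3e-05). Over windows of 300 bases, from 250 before to 50 after the gene start, the ABRE core stood in 26.7% of all 27443 protein-coding promoters, in 80.0% of the 45 tested LEA genes and in 70.8% of the 24 tested oil body genes. The RY element stood in 9.72% of all promoters and in 83.3% of those of oil body genes, but in 9 of the 45 windows of LEA proteins and dehydrins. Over all tested genes the ABRE core stood in 27.9% and the RY element in 7.74%. The ABRE core was not particular to seed maturation lists, since it stood in 84.2% of the 19 tested clock genes. A match in such a window is a description and not a binding site.

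Heat shock chaperones, which are loaded into maturing seeds without heat, divided within each kind. Of 38 genes with the alpha-crystallin fold 28 were tested, and 14 fell and 9 rose (median -1.04; -0.73, -1.21 and -1.53 in libraries 1, 2 and 3). ATHSP22.0, a small heat shock protein of the endoplasmic reticulum, stood at 49.8, 62.2 and 53.8 RPKM and then at 0.925, 0.361 and 6.18 RPKM (log2 change -4.40 ± 0.45, adjusted p = 2.2e-07). HSP26.5, of the same family, stood at 140.3, 153 and 151 RPKM and then at 7.71, 2.42 and 6.72 RPKM (log2 change -4.61 ± 0.57, adjusted p = 1.8e-06). BOB1, a member of this fold that is needed for normal development, had 41.1 to 45.1 RPKM in dry seeds and 93.1, 91.5 and 87.2 RPKM after stratification (log2 change 1.04 ± 0.29, adjusted p = 0.0039). Groups did not overlap in any of the 3.

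Among 19 tested HSP70 and HSP90 genes of 22, 14 rose and 4 fell (median 2.00). HSP90.1, the stress-inducible cytosolic HSP90, stood at 292, 298 and 289.5 RPKM in dry seeds and at 29.97, 7.15 and 12.9 RPKM after stratification (log2 change -4.27 ± 0.62, adjusted p = 1.1e-05). Hsp70b, a stress-inducible HSP70, fell from 544 to 554 RPKM to 7.08, 5.84 and 21.9 RPKM (log2 change -5.67 ± 0.50, adjusted p = 4.3e-08). HSP70-3, a cytosolic HSP70, went the other way, from 17.9 to 18.2 RPKM to 394, 252 and 248 RPKM (log2 change 3.94 ± 0.37, adjusted p = 1.0e-07). Chaperones of the endoplasmic reticulum were low in dry seeds and high after stratification. BIP1 stood at 3.52 to 3.69 RPKM and then at 104, 143 and 32.5 RPKM (log2 change 4.11 ± 0.41, adjusted p = 1.7e-07). CRT1b, a calreticulin, stood at 0.723 to 0.947 RPKM and then at 83.5, 148 and 26.2 RPKM (log2 change 5.25 ± 0.43, adjusted p = 2.0e-08). CNX1, the membrane-bound calnexin, stood at 4.08 to 4.33 RPKM and then at 128, 157 and 33.5 RPKM (log2 change 4.10 ± 0.43, adjusted p = 3.4e-07). Of the 19 protein disulfide isomerase and folding genes of that compartment, all tested, 16 rose and 0 fell (median 1.53).

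Sugars and antioxidant enzymes of the dry seed followed the same division by gene. Galactinol synthases make the donor for raffinose-family oligosaccharides, sugars that accumulate in drying seeds. GolS1 stood at 274 to 296 RPKM and then at 13.5, 6.48 and 24.9 RPKM (log2 change -4.34 ± 0.45, adjusted p = 2.7e-07), and GolS2 at 118 to 132 RPKM and then at 1.36, 1.11 and 3.84 RPKM (log2 change -5.43 ± 0.45, adjusted p = 2.1e-08). AT1G55740, annotated as seed imbibition 1, and DIN10, a raffinose synthase family member, rose. AT1G55740 had at most 0.103 RPKM in dry seeds and 25.9, 41.6 and 41.6 RPKM after stratification (log2 change 5.08 ± 0.26, adjusted p = 1.1e-10), and library 3 was level with library 2. Of 16 tested antioxidant genes 9 fell and 7 rose (median -1.10). PER1, the 1-cysteine peroxiredoxin of seeds, fell from 3287 to 3690 RPKM to 154, 176 and 499.9 RPKM (log2 change -3.87 ± 0.50, adjusted p = 3.0e-06). CSD1, a cytosolic superoxide dismutase, rose from 20.3 to 25.3 RPKM to 108, 135 and 110.0 RPKM (log2 change 2.28 ± 0.32, adjusted p = 7.7e-06).

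Genes for the cytosolic ribosome rose almost without exception. Of 231 listed genes 210 were tested, and 208 rose and 1 fell, with a median of 3.91 (4.11, 4.43 and 3.25 in libraries 1, 2 and 3). Their share of reads was 1.01% to 1.07% in dry seeds and 19.3%, 20.7% and 11.3% after stratification. RPL12C, a protein of the large subunit (chromosome 5, 24380504 to 24381599, minus strand), stood at 3.40, 3.64 and 2.64 RPKM and then at 506, 634 and 213 RPKM (log2 change 6.61 ± 0.37, adjusted p = 3.7e-10). RPP3A, of the acidic stalk, stood at 1.34, 1.48 and 1.72 RPKM and then at 169, 191 and 112 RPKM (log2 change 5.94 ± 0.33, adjusted p = 4.5e-10). RACK1C, a scaffold protein of the small subunit entered in the files as RACK1C_AT, stood at 0.784 to 1.05 RPKM and then at 259.5, 276 and 110.0 RPKM (log2 change 6.74 ± 0.33, adjusted p = 8.9e-11). In these genes library 3 was the lowest stratified library and still far above the dry ones. AT1G29970, annotated as a 60S ribosomal protein L18A, was the 1 member that fell, from 17.2 to 17.6 RPKM to 4.08, 3.96 and 5.61 RPKM (log2 change -1.75 ± 0.30, adjusted p = 6.6e-05). Most plant ribosomal proteins are encoded by near-identical genes, and the value of a single copy is uncertain for that reason.

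Genes that build the ribosome mostly rose too. Of 57 tested genes for ribosome biogenesis and the nucleolus 50 rose and 3 fell (median 2.00). FIB2, fibrillarin, which methylates ribosomal RNA (chromosome 4, 13074090 to 13076432, plus strand), stood at 7.503, 8.97 and 8.41 RPKM and then at 775, 893 and 427 RPKM (log2 change 6.17 ± 0.32, adjusted p = 1.7e-10). NOP5-1, its partner in small nucleolar ribonucleoproteins, stood at 16.003 to 18.7 RPKM and then at 367, 413 and 188 RPKM (log2 change 4.08 ± 0.34, adjusted p = 2.2e-08). AT1G65090, annotated as nucleolin, fell from 355 to 359 RPKM to 80.9, 84.9 and 85.6 RPKM, levels on which the 3 stratified libraries were close (log2 change -2.08 ± 0.35, adjusted p = 4.6e-05). Of the 9 tested small nucleolar RNAs 8 rose, although such RNAs lack the poly(A) tail by which the libraries were selected.

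Translation factors were less uniform. Of 62 tested initiation factors 45 rose and 6 fell (median 1.44), of 39 elongation factors 28 rose and 3 fell (median 1.66), and of 46 aminoacyl-tRNA synthetases 41 rose and 3 fell (median 1.58). FBR12, an eIF5A, stood at 117, 121 and 124 RPKM and then at 1242, 1426 and 760.4 RPKM (log2 change 3.18 ± 0.36, adjusted p = 6.6e-07). ELF5A-3, another gene for the same factor, fell from 89.3 to 91.9 RPKM to 33.7, 25.4 and 65.9 RPKM (log2 change -1.22 ± 0.36, adjusted p = 0.0057). AT1G54290, of the SUI1 or eIF1 family, fell from 31.6 to 34.0 RPKM to 4.07, 4.43 and 8.62 RPKM (log2 change -2.38 ± 0.30, adjusted p = 2.0e-06). The eIF5A genes thus stood on opposite sides of the comparison.

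Upstream of ribosomal protein genes 2 motifs recurred, and 2 windows are shown because their genes rose most among the members whose window holds both. Capitals mark the telo-box (AAACCCTA) and site II (TGGGCC or TGGGCT), each read on both strands, which plant promoters of ribosomal and cell division genes are known to carry. AT2G40205, annotated as ribosomal protein L41, lies at chr2:16792623-16792872, minus strand, and RPL36AB at chr3:8375083-8375332, plus strand, in RefSeq build TAIR10.1.
AT2G40205: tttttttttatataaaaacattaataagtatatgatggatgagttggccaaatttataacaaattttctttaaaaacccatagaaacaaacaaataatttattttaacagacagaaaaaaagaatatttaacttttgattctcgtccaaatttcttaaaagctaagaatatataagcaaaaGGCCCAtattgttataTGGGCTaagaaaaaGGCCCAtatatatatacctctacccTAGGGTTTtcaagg
RPL36AB: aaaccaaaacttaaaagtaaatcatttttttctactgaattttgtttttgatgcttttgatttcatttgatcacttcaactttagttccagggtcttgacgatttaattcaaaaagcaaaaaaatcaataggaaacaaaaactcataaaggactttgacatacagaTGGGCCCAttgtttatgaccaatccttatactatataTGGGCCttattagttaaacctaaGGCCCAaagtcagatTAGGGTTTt
The telo-box nearest to the start lies 14 bases before it in AT2G40205 and 9 bases before it in RPL36AB. AT2G40205 rose from 0.154 to 0.912 RPKM to 78.7, 103 and 39.6 RPKM, and RPL36AB from 13.6 to 18.3 RPKM to 909, 1272 and 479 RPKM (log2 changes 5.63 ± 0.33 and 5.59 ± 0.35, adjusted p = 6.1e-10 and 1.3e-09). In windows of 300 bases the telo-box stood in 48.57% of the 210 tested genes for cytosolic ribosomal proteins and in 6.22% of all protein-coding promoters, and site II in 74.3% and 21.7%. Both together stood in 39.5% and 2.21%. Among the genes with the 300 highest changes, the telo-box stood in 22.0% and site II in 47.67%, and among those with the 300 lowest changes the telo-box stood in 2.00% and site II in 60 of the 300. The highest 300 include ribosomal protein genes, so these shares are not independent of those above.

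**Figure D2:**
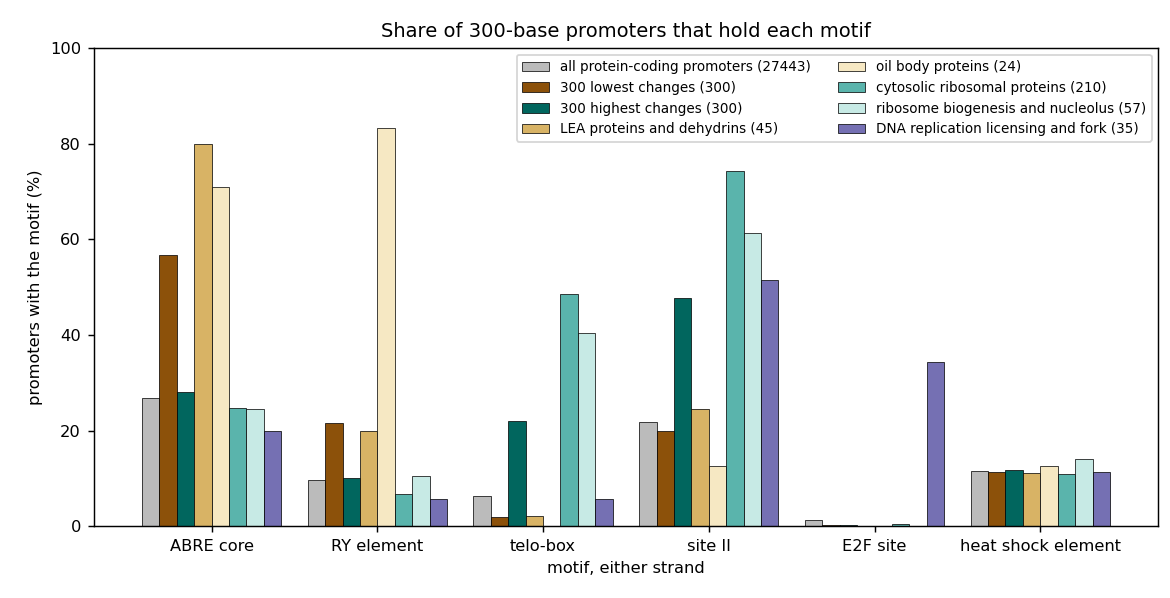
Bars give the percentage of 300-base promoters (250 bases before to 50 after the gene start) that hold each of 6 motifs on either strand, for all 27443 protein-coding genes, for the 300 lowest and highest changes and for the tested members of 5 lists, with the number of promoters in brackets. Among the sets shown, the ABRE core reaches 80.0% in LEA genes, the RY element 83.3% in oil body genes, site II 74.3% in ribosomal protein genes and the E2F site 34.3% in replication genes.

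Genes for the CCT chaperonin and most of those for the proteasome rose. All 9 genes of the CCT chaperonin, which folds actin and tubulin, were tested and rose (median 2.15), CCT8 from 12.1 to 13.9 RPKM to 133, 164 and 84.5 RPKM (log2 change 3.17 ± 0.30, adjusted p = 8.6e-08). Of 42 tested proteasome subunits 31 rose, 1 fell and 10 did not pass (median 1.21). Here library 3 was not nearest to the dry seeds. The list's median was 1.01, 1.31 and 1.40 in libraries 1, 2 and 3, and its share of reads was 0.594%, 0.628% and 0.822%, against 0.283% to 0.294% in dry seeds. PAD1, an alpha subunit of the 20S core, stood at 15.3 to 17.8 RPKM and then at 101, 113 and 136 RPKM (log2 change 2.74 ± 0.32, adjusted p = 1.1e-06). PBD2, a beta subunit, stood at 4.15 to 4.77 RPKM and then at 40.6, 48.5 and 45.1 RPKM (log2 change 3.09 ± 0.31, adjusted p = 1.7e-07). The difference of library 3 from libraries 1 and 2 in this list was not tested.

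Other lists of protein turnover went different ways. Of 283 tested RING and U-box proteins, mostly ubiquitin ligases, 118 fell and 59 rose (median -0.36). Of 26 tested autophagy genes 9 fell and 4 rose (median -0.48, and -0.30 without stratified library 1). ATG8H, which marks autophagosomes, fell from 125.1 to 139.6 RPKM to 3.67, 7.02 and 37.2 RPKM (log2 change -3.56 ± 0.54, adjusted p = 1.9e-05), whereas ATG8G, of the same family, rose from 7.92 to 11.9 RPKM to 31.5, 44.9 and 24.7 RPKM (log2 change 1.62 ± 0.29, adjusted p = 8.3e-05). Of 17 tested serine carboxypeptidases 11 rose and 3 fell (median 2.44), and of 15 tested subtilases 10 rose and 2 fell (median 1.40). These counts leave out 38 of 55 serine carboxypeptidases and 40 of 55 subtilases, which were not tested. scpl35 rose from 2.20 to 2.79 RPKM to 303, 319 and 154 RPKM (log2 change 6.14 ± 0.36, adjusted p = 6.1e-10), and AT4G36880, a cysteine proteinase, from 0.219 to 0.453 RPKM to 239.9, 334 and 102 RPKM (log2 change 7.23 ± 0.36, adjusted p = 1.1e-10).

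**Figure D3:**
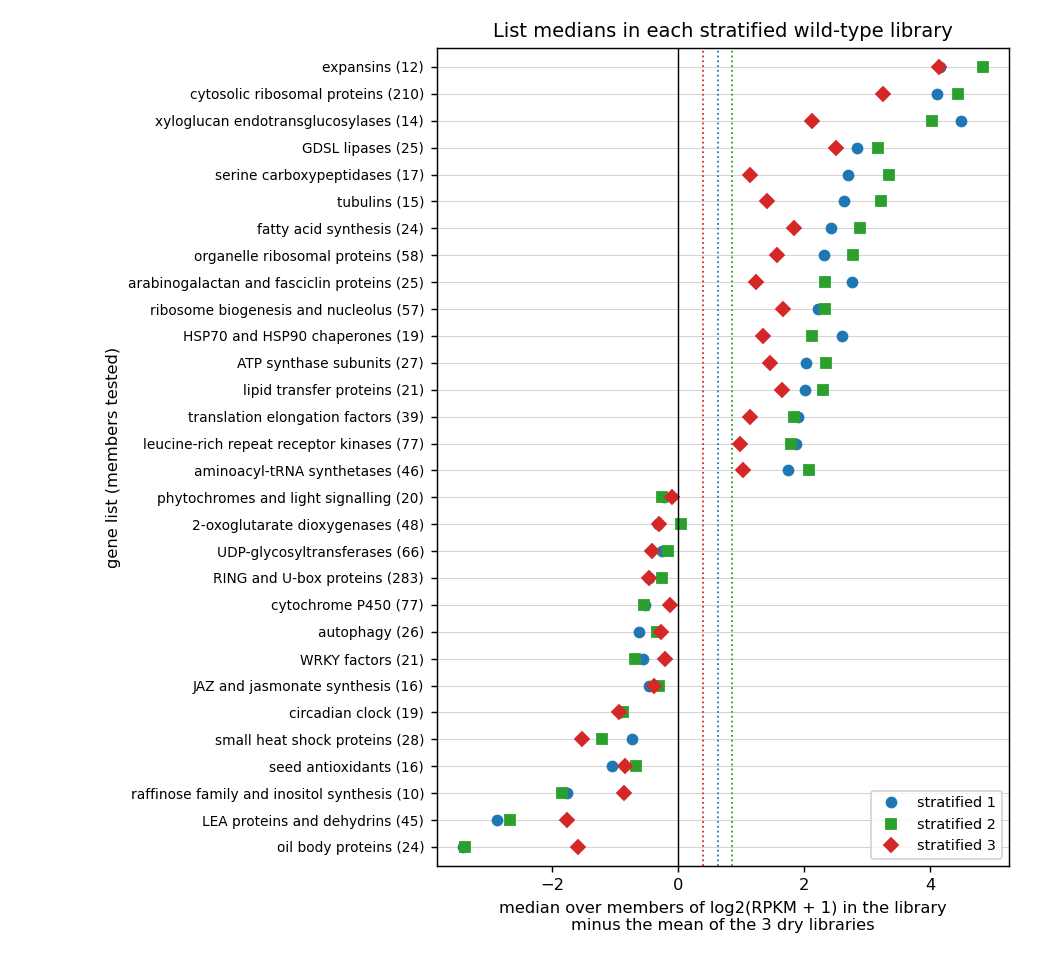
Each point is the median over the tested members of a list of log2(RPKM + 1) in 1 stratified wild-type library minus the mean of the 3 dry libraries, for the 16 highest and 14 lowest lists with at least 10 tested members. Dotted lines give each library's median over all tested genes (0.63, 0.86 and 0.39 for libraries 1, 2 and 3), and library 3 lies inside libraries 1 and 2 for ribosomal proteins and oil body proteins but below them for small heat shock proteins.

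Genes for loosening and building the cell wall supplied many of the steepest rises. Of 12 tested expansins 10 rose and 1 fell (median 4.43), and of 14 tested xyloglucan endotransglucosylases, which cut and rejoin hemicellulose chains, 12 rose and 1 fell (median 3.49; 4.48, 4.03 and 2.12 in libraries 1, 2 and 3). The share of reads of the xyloglucan endotransglucosylases went the other way. It was 0.262% to 0.272% in dry seeds and 0.166%, 0.0942% and 0.0517% in stratified libraries 1, 2 and 3. A member silent in dry seeds can pass the filter only through groups in which it is high. The counts therefore do not speak for the 22 expansins and 19 xyloglucan endotransglucosylases that were not tested. The same holds for untested members of the other lists. XTH19 stood at 0 to 0.102 RPKM and then at 197, 243 and 43.8 RPKM (log2 change 6.97 ± 0.45, adjusted p = 1.9e-09). PME3, a pectin methylesterase, stood at 0.352 to 0.369 RPKM and then at 138, 134 and 26.7 RPKM (log2 change 5.88 ± 0.48, adjusted p = 2.0e-08). AGP15, an arabinogalactan protein, stood at 4.82 to 6.65 RPKM and then at 772, 323 and 227 RPKM (log2 change 5.87 ± 0.44, adjusted p = 7.5e-09). The stratified values differed several-fold among libraries in these genes, with library 3 lowest, yet all lay above the dry ones. CSLE1, a cellulose synthase-like gene, fell from 108 to 116 RPKM to 10.04, 6.02 and 20.4 RPKM (log2 change -3.25 ± 0.35, adjusted p = 3.7e-07).

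Tubulins and genes for surface lipids mostly rose, and water channels went both ways. Of 15 tested tubulins 13 rose and 1 fell (median 2.38), TUB4 from 1.97 to 2.69 RPKM to 85.6, 117 and 68.7 RPKM (log2 change 4.71 ± 0.30, adjusted p = 1.6e-09). Of 18 tested aquaporins 9 rose and 3 fell (median 0.77), shares near those over all tested genes (49.8% and 18.9%). PIP3, of the plasma membrane, rose from 3.08 to 3.66 RPKM to 311, 306 and 103 RPKM (log2 change 5.64 ± 0.38, adjusted p = 2.5e-09). TIP3;1, the tonoplast channel of seed storage vacuoles, fell from 1994 to 2024 RPKM to 216, 143 and 856 RPKM (log2 change -2.75 ± 0.54, adjusted p = 0.00023), and BETA-TIP, of the same class, from 2019 to 2111 RPKM to 33.5, 29.4 and 176 RPKM (log2 change -5.18 ± 0.57, adjusted p = 5.4e-07). FAD3, the desaturase that makes linolenic acid in the endoplasmic reticulum (chromosome 2, 12781524 to 12785190, minus strand), stood at 0.234, 0.533 and 0.430 RPKM and then at 159, 189 and 138 RPKM (log2 change 6.86 ± 0.25, adjusted p = 3.3e-12). LP1, a lipid transfer protein, rose from 0.109 to 0.193 RPKM to 121, 205 and 41.2 RPKM (log2 change 6.46 ± 0.45, adjusted p = 4.0e-09). Of 10 tested genes for cutin and wax 8 rose and 0 fell (median 1.52), LACS2 from at most 0.0187 RPKM to 11.9, 15.9 and 3.89 RPKM (log2 change 3.34 ± 0.37, adjusted p = 5.1e-07).

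**Figure D4:**
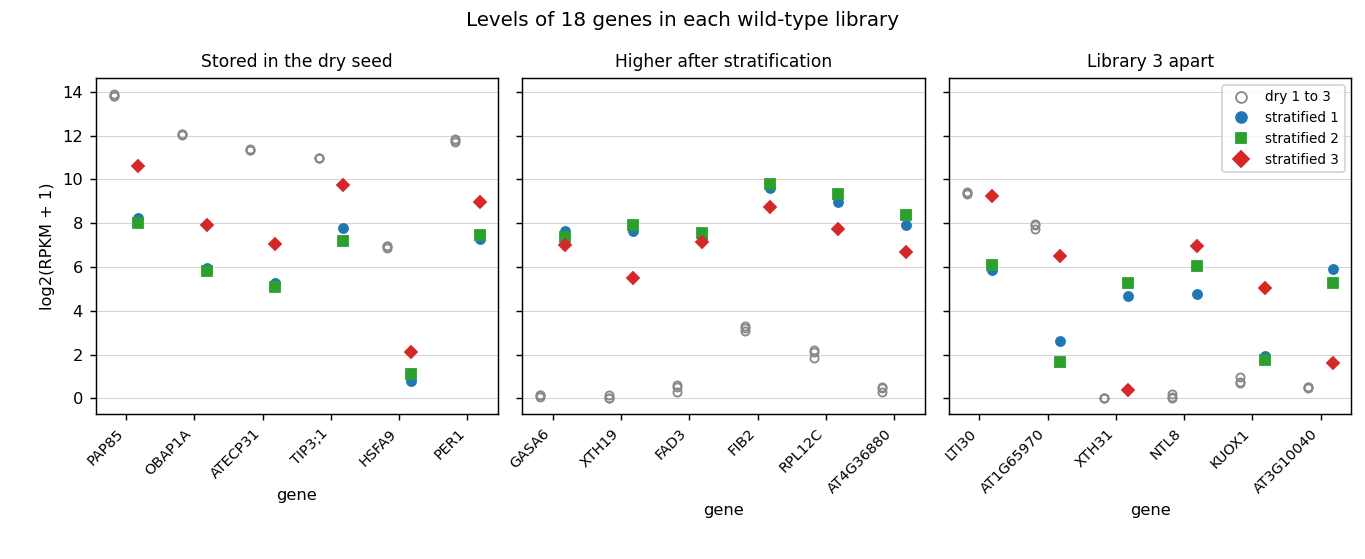
Points give log2(RPKM + 1) of 18 genes in each wild-type library, with open circles for dry libraries 1 to 3 and filled symbols for stratified libraries 1, 2 and 3. In the left and middle panels the groups do not overlap, and library 3 lies nearest to the dry points in each gene shown. The right panel shows genes of the set with the largest gap between library 3 and the other 2, and also NTL8. NTL8 was not singled out by its gap. XTH31 of that set stood at 24.2, 37.4 and 0.319 RPKM in stratified libraries 1, 2 and 3.

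In the nucleus, most tested genes for DNA replication and for histones rose. Of 35 tested replication genes 27 rose and 2 fell (median 1.54; 1.498, 2.09 and 0.76 in libraries 1, 2 and 3). PCNA1, the sliding clamp of DNA polymerase, had at most 0.0475 RPKM in dry seeds and 18.2, 28.03 and 3.93 RPKM after stratification (log2 change 3.78 ± 0.42, adjusted p = 6.4e-07). TSO2, a subunit of ribonucleotide reductase, stood at 0.380 to 0.839 RPKM and then at 12.96, 25.5 and 6.09 RPKM (log2 change 3.08 ± 0.36, adjusted p = 1.0e-06). Of 24 tested cyclins 14 rose and 1 fell (median 0.92), which is 58.3% higher beside 49.8% over all genes, and 9 rose with library 3 alone. CYCD3;2, a cyclin of the G1 phase, rose from 2.84 to 3.54 RPKM to 27.6, 29.7 and 14.4 RPKM (log2 change 2.53 ± 0.30, adjusted p = 1.2e-06). Of 39 tested histones 24 rose and 3 fell (median 1.25), which is 61.5% higher beside 49.8% over all genes. HTA8, an H2A, rose from 0.121 to 0.201 RPKM to 68.6, 79.5 and 20.9 RPKM (log2 change 5.42 ± 0.40, adjusted p = 6.9e-09). AT1G08170, annotated as a histone superfamily protein, fell from 276 to 292 RPKM to 5.75, 7.22 and 15.9 RPKM (log2 change -4.86 ± 0.46, adjusted p = 1.1e-07), and HIS1-3, a linker histone of stressed tissue, from 60.2 to 66.1 RPKM to 10.8, 19.1 and 34.7 RPKM (log2 change -1.67 ± 0.37, adjusted p = 0.00075).

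The E2F site (TTTCCCGC or TTTGGCGC), bound by the factors that switch on genes of the DNA synthesis phase, stood in 34.3% of the 35 replication promoters and in 1.21% of all promoters of the same length. The window of RPA3A, a subunit of the single-strand DNA-binding protein RPA, is shown with this site in capitals, at chr3:19513687-19513936, plus strand, in RefSeq build TAIR10.1.
RPA3A: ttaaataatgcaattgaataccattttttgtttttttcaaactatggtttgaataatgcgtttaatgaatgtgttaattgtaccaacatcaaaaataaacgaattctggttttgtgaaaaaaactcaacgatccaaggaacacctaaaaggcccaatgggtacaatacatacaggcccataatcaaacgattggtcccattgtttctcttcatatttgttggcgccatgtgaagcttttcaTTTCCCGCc
The site lies 9 bases before the gene start. RPA3A had at most 0.0763 RPKM in dry seeds and 5.07, 10.3 and 0.316 RPKM in stratified libraries 1, 2 and 3 (log2 change 2.13 ± 0.49, adjusted p = 0.00092), so that library 3 was close to the dry level.

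Most respiratory, ATP synthase and glycolysis genes rose, and other lists of energy metabolism were mixed. Of 74 tested genes of the mitochondrial respiratory complexes 47 rose and 5 fell (median 1.12), of 27 for ATP synthase 19 rose and 2 fell (median 1.90), and of 57 for glycolysis 37 rose and 5 fell (median 1.12). The shares that rose were 63.5%, 70.4% and 64.9%, beside 49.8% over all tested genes. Of 37 tested genes of the tricarboxylic acid cycle 20 rose and 6 fell, near the share over all genes, with a median of 0.72 that changed sign under TMM-style scaling. Of 21 for beta-oxidation and the glyoxylate cycle 5 rose and 7 fell (median -0.16). SDH2-3, the succinate dehydrogenase subunit known from maturing embryos, fell from 225, 227 and 231 RPKM to 31.2, 29.5 and 53.5 RPKM (log2 change -2.60 ± 0.38, adjusted p = 1.3e-05). FUM1, mitochondrial fumarase, rose from 4.00 to 4.38 RPKM to 75.6, 98.4 and 23.2 RPKM (log2 change 3.47 ± 0.41, adjusted p = 1.1e-06). PFK2, a phosphofructokinase, fell from 227 to 243 RPKM to 43.1, 33.8 and 80.5 RPKM (log2 change -2.25 ± 0.36, adjusted p = 2.7e-05), while FBA8, an aldolase, rose from 5.33 to 5.86 RPKM to 101, 119.5 and 87.3 RPKM (log2 change 3.97 ± 0.29, adjusted p = 5.3e-09). Of 58 tested ribosomal proteins of mitochondria and plastids 56 rose and 1 fell (median 2.14), and of 386 tested pentatricopeptide repeat proteins, which process organelle RNA, 275 rose and 11 fell (median 0.85). For the repeat proteins that is 71.2% higher beside 49.8% over all tested genes. Under median centring, TMM-style scaling and quantile normalization 151, 206 and 119 of them rose and 41, 40 and 68 fell. Their median was then 0.27, 0.42 and 0.083.

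Nuclear genes for plastid proteins mostly rose, and the labels give no light regime. Of 45 tested photosystem and light-harvesting genes 29 rose and 6 fell (median 1.01, and 1.02, 1.46 and 0.54 in libraries 1, 2 and 3). That is 64.4% higher and 13.3% lower, beside 49.8% and 18.9% over all tested genes. CHLI1, a subunit of magnesium chelatase in chlorophyll synthesis, stood at 0.0667 to 0.138 RPKM and then at 62.8, 110.0 and 10.08 RPKM (log2 change 5.28 ± 0.53, adjusted p = 2.1e-07). PSBQA, an extrinsic protein of photosystem II, stood at 0.410 to 0.667 RPKM and then at 33.5, 63.9 and 6.59 RPKM (log2 change 4.10 ± 0.50, adjusted p = 1.8e-06). LHCB4.2, an antenna protein, fell from 9.93 to 12.6 RPKM to 2.64, 1.57 and 1.56 RPKM (log2 change -2.06 ± 0.33, adjusted p = 3.2e-05). Library 3 was far below libraries 1 and 2 in the rising pair and level with library 2 in the falling gene.

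Genes of nitrogen and secondary metabolism went both ways. ASN2 and ASN3, asparagine synthetases, rose by 3.68 ± 0.31 and 3.87 ± 0.39 on the log2 scale (adjusted p = 2.7e-08 and 2.1e-07), with ASN3 at 0.422 to 0.925 RPKM in dry seeds and at 31.3, 38.7 and 9.22 RPKM after stratification. GLN1;5, a glutamine synthetase, fell from 62.9 to 71.2 RPKM to 8.90, 10.9 and 11.2 RPKM (log2 change -2.61 ± 0.33, adjusted p = 2.2e-06). NRT1.8, a nitrate transporter, fell from 302 to 325 RPKM to 8.0, 4.06 and 23.4 RPKM (log2 change -4.94 ± 0.43, adjusted p = 3.7e-08), whereas NRT1:2, of the same family, rose from 0.327 to 0.447 RPKM to 10.3, 14.6 and 11.8 RPKM (log2 change 3.26 ± 0.27, adjusted p = 2.3e-08). Of 77 tested cytochrome P450 genes 26 rose and 31 fell (median -0.39, and -0.25 without stratified library 1), and of 66 glycosyltransferases 22 rose and 29 fell (median -0.26, and -0.14 without library 3). BGLU19, a beta-glucosidase, fell from 910.1 to 1004 RPKM to 11.9, 8.59 and 61.2 RPKM (log2 change -5.62 ± 0.59, adjusted p = 2.8e-07). NSP2, a specifier of glucosinolate breakdown in seeds, fell from 997 to 1041 RPKM to 11.6, 11.7 and 62.6 RPKM (log2 change -5.56 ± 0.49, adjusted p = 4.3e-08). In both, library 3 lay several times above libraries 1 and 2.

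Some loci had no reads in any dry library. There were 21 loci at 0 in all 3 dry libraries and at 5 RPKM or more in all 3 stratified ones, and 0 in the opposite direction. Against the RPKM that 3 reads would give over the dry group, EXO, a gene of brassinosteroid-promoted growth, was at least 935-fold higher, with 236, 37.4 and 19.3 RPKM. XTH16 was at least 484-fold higher, with 109.5, 33.4 and 28.2 RPKM. GA3OX1, which makes bioactive gibberellin and is known for its induction by cold in imbibed seeds, was at least 166-fold higher, with 19.4, 16.9 and 10.6 RPKM. EXO was far higher in library 1 than in the other 2, whereas GA3OX1 differed little among the 3. The neighbouring genes AT4G34790 and AT4G34800, small auxin-responsive proteins on chromosome 4, were both in this set, at 11.8, 13.2 and 6.0 RPKM and at 16.3, 22.4 and 11.6 RPKM.

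The heat stress, bZIP and AP2 factors named here did not share a direction, and no list of maturation or dormancy regulators was made. HSFA9, the heat stress factor specific to seeds (chromosome 5, 21943983 to 21945651, plus strand), fell from 124, 116 and 122 RPKM to 0.748, 1.14 and 3.32 RPKM (log2 change -5.59 ± 0.40, adjusted p = 4.9e-09). ABI5, a bZIP factor of abscisic acid response (chromosome 2, 15204659 to 15207636, minus strand), fell from 174 to 179 RPKM to 40.9, 33.4 and 33.6 RPKM (log2 change -2.27 ± 0.36, adjusted p = 3.2e-05), and EEL, a related bZIP, from 42.8 to 48.1 RPKM to 8.97, 9.45 and 8.86 RPKM (log2 change -2.20 ± 0.35, adjusted p = 2.7e-05). In these bZIP genes the 3 stratified libraries were nearly level. ABI4, an AP2 factor of the same response, went up, from 1.64 to 2.24 RPKM to 60.1, 62.7 and 35.7 RPKM (log2 change 4.13 ± 0.31, adjusted p = 8.0e-09). bZIP44 was at 0 in every dry library and at 24.1, 13.2 and 15.7 RPKM after stratification (log2 change 4.18 ± 0.27, adjusted p = 2.1e-09).

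Other transcription factors went both ways, family by family. ATAF1, a NAC factor of stress response, fell from 744 to 787 RPKM to 72.7, 111 and 162 RPKM (log2 change -2.79 ± 0.42, adjusted p = 1.8e-05). DREB2D, an AP2 factor of drought response, fell from 189.6 to 201 RPKM to 12.6, 13.5 and 16.9 RPKM (log2 change -3.70 ± 0.38, adjusted p = 2.6e-07). WRKY15 fell from 146 to 149 RPKM to 10.9, 11.8 and 31.0 RPKM (log2 change -3.13 ± 0.37, adjusted p = 1.1e-06). Of 21 tested WRKY genes 9 fell and 5 rose (median -0.49, with -0.33 without stratified library 1 and -0.83 without library 3). Of 24 tested TCP and GRF factors, which govern growth of organs, 19 rose and 0 fell (median 1.29), GRF4 from 0.0339 to 0.0862 RPKM to 7.70, 10.8 and 4.55 RPKM (log2 change 2.97 ± 0.28, adjusted p = 8.5e-08). Of 63 tested homeobox factors 42 rose and 6 fell (median 1.14). The medians of the NAC, ERF, bHLH and MYB families lay between 0.10 and 0.36, below the all-gene median, and changed sign when the libraries were centred, so no direction is given for them.

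Auxin transporters and brassinosteroid genes mostly rose, and auxin-responsive lists did not stand out. Of 12 tested auxin transporters 9 rose and 0 fell (median 1.504). Of 29 tested Aux/IAA and ARF genes 16 rose and 6 fell (median 0.82), and of 21 tested SAUR genes 9 rose and 9 fell, with a median of 0.46 that changed sign under median centring and quantile normalization. Of 14 tested brassinosteroid genes 9 rose and 1 fell (median 1.41), which is 64.3% higher beside 49.8% over all tested genes. Under median centring, TMM-style scaling and quantile normalization 9, 9 and 8 of them rose and 2, 3 and 3 fell. BRI1, the receptor, rose from 1.39 to 1.70 RPKM to 14.9, 12.3 and 11.97 RPKM (log2 change 2.47 ± 0.25, adjusted p = 2.4e-07). GASA6, a small peptide gene induced by gibberellin (chromosome 1, 28053030 to 28054149, plus strand), stood at 0.0999, 0.0974 and 0.0589 RPKM and then at 198, 162 and 129 RPKM (log2 change 7.22 ± 0.29, adjusted p = 7.9e-12). Of 15 GASA genes 6 were tested, and 4 rose and 2 fell. GASA3, of the same family, was abundant in dry seeds and fell, from 889 to 911 RPKM to 159.6, 134 and 629 RPKM (log2 change -1.91 ± 0.49, adjusted p = 0.0023). Of 186 leucine-rich repeat receptor kinases 77 were tested, and 62 rose and 1 fell (median 1.63). The count does not speak for the 109 not tested. A kinase silent in dry seeds can pass the filter only through groups in which it is high.

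Ethylene, jasmonate and light genes divided. Of 15 tested ethylene genes 5 rose and 4 fell (median -0.19, and -0.08 without stratified library 2), with ERS1, a receptor, higher by 2.96 ± 0.25 and ACS2, a synthesis enzyme, lower by a log2 change of -3.002 ± 0.32 (adjusted p = 3.4e-08 and 3.4e-07). ACS2 stood at 14.5 to 16.3 RPKM and then at 0.820, 0.610 and 2.02 RPKM. Of 16 tested jasmonate genes 8 fell and 4 rose (median -0.52). Of 20 tested light signalling genes 8 fell and 7 rose (median -0.20). PIL5, also known as PIF1, a repressor of germination in the dark, rose from 18.5 to 19.1 RPKM to 37.2, 50.8 and 43.6 RPKM (log2 change 1.17 ± 0.30, adjusted p = 0.0020). SPT, a factor that acts in the response of seeds to cold, rose from 0.635 to 1.20 RPKM to 10.9, 22.4 and 4.85 RPKM (log2 change 2.59 ± 0.39, adjusted p = 1.8e-05). HY5, a promoter of light responses, fell from 9.92 to 11.96 RPKM to 4.88, 3.12 and 1.03 RPKM (log2 change -1.70 ± 0.37, adjusted p = 0.00055), whereas its homolog HYH rose from 2.08 to 2.52 RPKM to 5.61, 7.72 and 8.94 RPKM (log2 change 1.33 ± 0.25, adjusted p = 0.00013).

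Clock genes fell more often than they rose. All 19 listed clock genes were tested, of which 10 fell and 3 rose (median -0.92; -0.91, -0.87 and -0.93 in libraries 1, 2 and 3), so that library 3 stood with the other 2. The 3 that rose were CCA1 and LHY, the MYB factors of the morning loop, and AT5G08330, known as CHE, a TCP factor that binds the CCA1 promoter. CCA1 (chromosome 2, 19245591 to 19248915, plus strand) stood at 0.501, 0.635 and 0.512 RPKM in dry seeds and at 9.21, 13.6 and 10.96 RPKM after stratification (log2 change 2.97 ± 0.23, adjusted p = 1.1e-08). LHY stood at 0.213, 0.350 and 0.298 RPKM and then at 9.07, 7.88 and 10.6 RPKM (log2 change 2.97 ± 0.25, adjusted p = 3.1e-08). AT5G08330 stood at 0.505 to 0.885 RPKM and then at 9.53, 5.07 and 6.94 RPKM (log2 change 2.27 ± 0.27, adjusted p = 1.3e-06). In all 3 the groups lay far apart.

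Evening genes and activators of the clock were lower after stratification. ELF4, of the evening complex, fell from 63.7, 70.9 and 65.5 RPKM to 9.75, 10.7 and 12.1 RPKM (log2 change -2.52 ± 0.32, adjusted p = 3.1e-06). PCL1, also known as LUX, of the same complex, fell from 8.83 to 9.47 RPKM to 2.21, 2.06 and 1.41 RPKM (log2 change -1.82 ± 0.34, adjusted p = 0.00013). TOC1, the evening repressor of CCA1, fell from 21.6 to 22.998 RPKM to 8.10, 11.6 and 6.96 RPKM (log2 change -1.27 ± 0.30, adjusted p = 0.0010). RVE8, an activator of evening genes, fell from 18.2 to 19.7 RPKM to 3.14, 3.90 and 2.86 RPKM (log2 change -2.22 ± 0.31, adjusted p = 6.5e-06). The other 6 that fell were LCL1 (RVE4), RVE6, GI, ZTL, PRR3 and AT3G54500 (LNK2), with log2 changes from -2.21 to -0.83. AT3G54500 did not pass without dry library 2 or dry library 3 (adjusted p = 0.059 and 0.068). PRR5, PRR7, PRR9, ELF3, LNK1 and FKF1 did not pass the test, and of these PRR5 spread from 0.804 to 6.17 RPKM and FKF1 from 0.722 to 5.45 RPKM among the stratified libraries. Without library 3 both passed as lower (log2 changes -1.07 and -1.0, adjusted p = 0.0031 and 0.0046), and PRR9 passed as lower without stratified library 1 (-1.38, adjusted p = 0.017). The hour of sampling is not given in the labels, so state and time of day cannot be told apart.

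**Figure D5:**
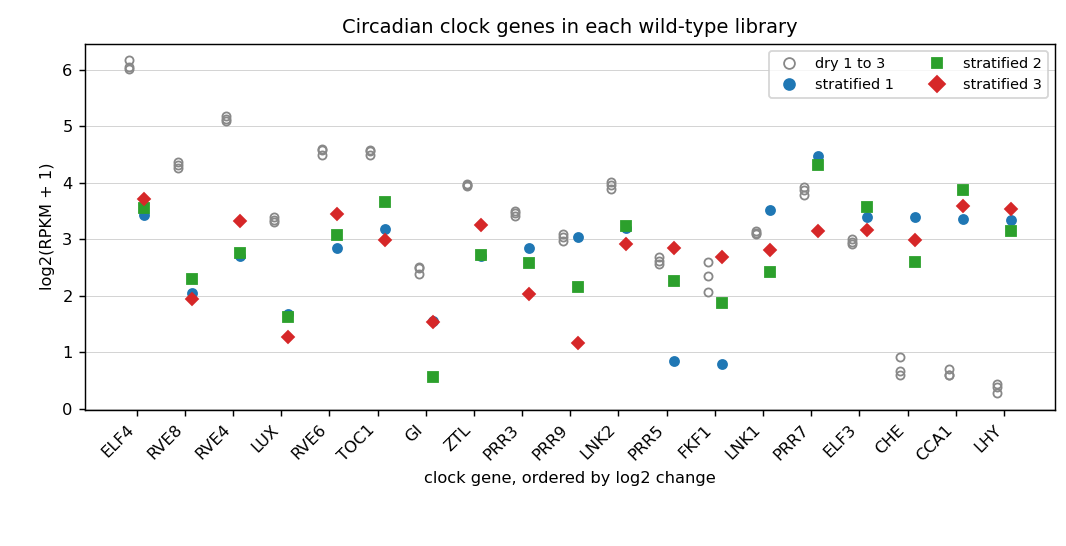
Points give log2(RPKM + 1) of 19 clock genes in each wild-type library, ordered by log2 change, with open circles for dry and filled symbols for stratified libraries 1 to 3. CCA1, LHY and CHE lie above the dry points in all 3 stratified libraries, ELF4, RVE8, RVE4, LUX, RVE6 and TOC1 lie below, and PRR5, PRR9 and FKF1 are spread among the stratified libraries.

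A set of genes separated library 3 from the other stratified libraries, and 20 were singled out by the size of that gap. Among the 10 that rose, 8 had library 3 nearer to the dry level than libraries 1 and 2. XTH31, a xyloglucan enzyme (chromosome 3, 16446935 to 16448844, minus strand), was at 0 in the dry libraries and at 24.2, 37.4 and 0.319 RPKM in stratified libraries 1, 2 and 3. The mutant-labelled stratified libraries held 0.786, 5.85 and 0.163 RPKM. AT3G10040, annotated as a sequence-specific DNA-binding protein, stood at 0.388 to 0.428 RPKM in dry seeds and at 59.8, 37.1 and 2.03 RPKM, beside 3.15, 30.4 and 1.79 RPKM in the mutant-labelled ones. PYK10, a beta-glucosidase of endoplasmic reticulum bodies, stood at 0.147 to 0.604 RPKM and then at 17.4, 43.6 and 1.01 RPKM, beside 1.09, 2.03 and 0.602 RPKM. Library 3 was within the range of the mutant-labelled stratified libraries in these genes. Their log2 changes were 3.44 ± 0.83, 3.76 ± 0.85 and 3.18 ± 0.68 (adjusted p = 0.0015, 0.00078 and 0.00050), and 4.96, 5.09 and 4.46 without library 3.

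The opposite was seen for KUOX1, a gene known for its induction by karrikins, and for the plastid gene MATK. KUOX1 stood at 0.621 to 0.973 RPKM in dry seeds and at 2.87, 2.39 and 31.7 RPKM in the stratified libraries, beside 22.4, 13.2 and 15.5 RPKM in the mutant-labelled ones. MATK stood at 0.848 to 1.29 RPKM and then at 4.95, 1.74 and 45.7 RPKM, beside 85.9, 3.13 and 69.2 RPKM. Both values were set largely by library 3. Their log2 changes were 2.11 ± 0.56 and 2.18 ± 0.92 (adjusted p = 0.0028 and 0.043), and 1.05 and 1.00 without it (adjusted p = 0.00077 and 0.093), so that KUOX1 still passed and MATK did not. KUOX1 did not pass under the 3 scalings, nor did MATK, which also did not pass when any 1 of the dry libraries was left out (adjusted p from 0.061 to 0.080). NTL8, a membrane-bound NAC factor that acts in the salt response of germinating seeds (chromosome 2, 11680276 to 11681971, minus strand), had at most 0.138 RPKM in dry seeds and 25.9, 64.3 and 122.8 RPKM after stratification (log2 change 5.83 ± 0.39, adjusted p = 2.5e-09), highest in library 3. It was not among the genes singled out by the gap.

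Among the 10 falling genes with the largest gap, 9 kept more transcript in library 3. LTI30, a dehydrin (chromosome 3, 18940643 to 18941611, plus strand), stood at 673, 679.5 and 649 RPKM in dry seeds and at 57.9, 66.3 and 605 RPKM in the stratified libraries, beside 473, 519.7 and 249 RPKM in the mutant-labelled ones. AT1G65970, a thioredoxin-dependent peroxidase, stood at 212 to 251 RPKM and then at 5.19, 2.16 and 90.6 RPKM, beside 137, 93.7 and 68.5 RPKM. MLP31, a major latex protein homolog, stood at 1144 to 1188 RPKM and then at 22.9, 19.1 and 229 RPKM, beside 252, 281 and 129 RPKM. In each the library 3 value lay within or above the range of the mutant-labelled libraries and far above libraries 1 and 2. The exception was AT1G14200, a RING protein, at 221 to 232 RPKM in dry seeds and at 35.7, 38.5 and 4.34 RPKM, beside 11.2, 160.3 and 7.54 RPKM. The log2 change of LTI30 was -2.32 ± 0.63 (adjusted p = 0.0034) and -3.41 without library 3.

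Genes listed as markers of the endosperm and the seed coat were read, with no embryo list beside them. Their levels do not measure how much of each tissue was represented. Of 7 endosperm genes 5 were tested, and their summed level was 2750, 2134 and 1862 RPKM in dry seeds and 711, 609.8 and 1334 RPKM after stratification, nearly all of it EPR1, an extensin of the endosperm. EPR1 stood at 2743, 2128 and 1856 RPKM and then at 474, 314 and 1272 RPKM (log2 change -1.94 ± 0.48, adjusted p = 0.0017). EXPA2, the expansin of germinating endosperm, rose from at most 0.221 RPKM to 209.6, 268 and 47.0 RPKM, and MAN7, a mannanase that softens it, from 0.804 to 1.21 RPKM to 20.6, 20.1 and 10.2 RPKM (log2 changes 7.01 ± 0.56 and 3.10 ± 0.40, adjusted p = 1.7e-08 and 3.5e-06). MAN6 passed narrowly (log2 change 0.90 ± 0.38, adjusted p = 0.043), but not when any dry library, stratified library 1 or stratified library 2 was left out (adjusted p from 0.057 to 0.18), and MAN5 did not pass. NAC25, an endosperm factor known to act on EXPA2 in germinating seeds, was at 0 throughout, and ZOU, a regulator of the developing endosperm, was at or under 0.0377 RPKM. Seed coat genes were scarce: of 8, 2 were tested, the sum was 2.66 to 3.17 RPKM in dry seeds and 5.02, 9.24 and 7.39 RPKM after stratification, TT16 was at 0, and BAN, TT10 and TT12 did not exceed 0.215 RPKM. MUM4 rose from 0.324 to 0.467 RPKM to 1.81, 3.16 and 0.809 RPKM (log2 change 1.00 ± 0.26, adjusted p = 0.0024), but did not pass under median centring or quantile normalization. PMEI6 stood at 2.06 to 2.66 RPKM and then at 2.28, 3.59 and 5.88 RPKM, and did not pass (adjusted p = 0.12). TTG2, not tested, stood at 0.0228 to 0.0276 RPKM and then at 0.762, 2.09 and 0.206 RPKM. MUM2, not tested, did not exceed 0.284 RPKM. What part tissue makeup had in the other changes was not tested.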

How the data were processed

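RNA was extracted from seeds with Trizol, selected with oligo-dT beads and made into strand-specific libraries, per the labels' protocols. The authors deposited 1 table of RPKM values for 32833 loci in 12 libraries, 3 in each of 4 groups. STAR, DESeq2 and TAIR10 are given in the submitters' processing notes, with neither version nor role. No counts were used. The steps between 56297 low values matched whole reads in 99.4% of cases (tolerance 0.05), and these steps gave depths of 18.6 to 22.99 M reads in the wild-type libraries.

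Genes that reached 1 RPKM in 3 or more of the libraries were fitted on log2(RPKM + 1) with limma 3.58.1, as 4 group means over all 12 libraries with 8 residual degrees of freedom. P-values were adjusted by Benjamini-Hochberg over the 15145 genes tested, and 0.05 was the threshold. A list was described by its counts and median, and no test was run on it. Read shares are over reads on loci of the table other than ribosomal RNA. Tables were handled with pandas 2.3.3, numpy 2.4.6 and scipy 1.17.1. On simulated data with 15145 genes, 100 genes were changed 2-fold and 100 were changed 4-fold, all from genes above a set dry level. Of these changes 30% and 93% were recovered, with 8 false calls. In the real comparison 68.6% of the genes were called, so these rates do not measure its sensitivity.

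The members and lists were chosen with earlier results of these data known. The 97 lists came from annotation words and from named loci, and several were corrected after values were seen, where a word had caught an unrelated family. Genes were named from the 15 highest and 15 lowest changes of at least 2-fold without overlap, with 5 RPKM or more as the mean of the higher group, the 3 extremes of each list in each direction, members that went against their list, the 10 rising and 10 falling genes with the largest gap of stratified library 3, and all tissue and clock markers. The text gives a subset with known roles. GEA6, AT2G40205, RPL36AB, RPA3A, EXO and GA3OX1 were chosen after their values were seen. Alternatives were another pseudocount, other filters, 3 scalings, ribosomal RNA left out, the wild-type libraries alone, a replicate block, each library left out, and library 3 alone.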

Additional observations from a re-analysis of the deposited data

Results flagged for a closer look

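UGT73B2, a glycosyltransferase of flavonols (AT4G34135), changed by different amounts in the 2 lines, and was picked out because the difference itself passed the test over all genes (limma interaction term). In the wild type it stood at 0, 0.0194 and 0.0235 RPKM in dry seeds and at 5.37, 7.65 and 7.35 RPKM after stratification, with stratified library 3 level with library 2. The mutant-labelled stratified libraries held 0.786, 0.621 and 0.595 RPKM. The wild-type change exceeded the mutant-labelled one by 2.20 ± 0.28 on the log2 scale (adjusted p = 0.0028), 1 of 4 genes that passed.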

How the results depend on the processing

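The numbers of genes rising and genes falling were 7535 and 2862. With a filter at 5 RPKM, which leaves fewer genes to test, 4972 genes rose. Falling genes numbered 5561 under median centring, 5725 under TMM-style scaling and 5750 under quantile normalization. Leaving out 1 library at a time gave 6647 to 8026 rising and 2379 to 2907 falling genes. Same-numbered dry and stratified libraries did not deviate together (r = 0.00076, 0.034 and -0.038), so the numbers do not pair the samples. A replicate block gave 7501 rising and 2961 falling genes over the 6 wild-type libraries, and 7558 and 2824 over all 12. Of 137 genes named and tested, 14 no longer passed and 1 newly passed with library 3 as the only stratified library, and 127 or 128 kept their direction and side of the threshold under each scaling. SESA5 did not pass without a filter (adjusted p = 0.076), nor did CRA1 (adjusted p = 0.23). The cause was not tested. Depth limits the loci near 0 most, where 3 reads or fewer stand behind a value.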
